A study of Mus musculus with 12 samples.

Results

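Macrophages are tissue leukocytes that depend on the growth factor receptor CSF1R and the transcription factor PU.1, encoded by Spi1, and the neonatal heart holds resident ones. They sense immune complexes and lipids through Fc receptors and TREM2, which signal through the small adaptors FCER1G and TYROBP, coat debris with complement C1q, and digest what they take up in lysosomes rich in lysozyme and cathepsins. A fibroblast preparation from digested heart can carry such cells into culture. The genes described here are 39 mouse genes that mark macrophages and other leukocytes, listed by symbol, and each of them matched exactly 1 of the 35727 genes in the deposited table.

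Bulk RNAseq was collected from fibroblasts of pooled neonatal C57BL/6J mouse hearts, enriched for the surface protein THY1 with magnetic beads and grown in EGM2 endothelial medium. For the characterisation of the converted cells the study added a depletion of PECAM1-positive cells to the isolation, which its methods describe as optional, and the labels do not say for which libraries it was done. Control cultures, whose library names begin with PMX after the retroviral backbone, were compared with Sox17-Erg cultures that had received Sox17 and Erg retroviruses to convert fibroblasts into endothelial-like cells. Each culture was sampled on Day 3, on Day 7 and in Week 4, with 2 libraries a group and 12 in all. Depth ran from 19011635 to 41240449 estimated counts per library. The labels do not say whether the 2 libraries of a group came from separate cultures, so the p-values measure only the spread between these libraries, which may be technical. In bulk samples fewer macrophages and less RNA per macrophage cannot be told apart. Levels are CPM, counts scaled to library size after TMM normalisation, with replicate 1 given before replicate 2.

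The macrophage signal was a minor part of every library. The 8 fibroblast markers checked, among them Col1a1 and Pdgfra, summed to between 12363.7 and 41655.8 CPM, whereas the 39 leukocyte genes summed to between 88.2 and 1823.9 CPM. The 8 endothelial markers summed to between 17.9 and 52.5 CPM in the control libraries and between 306 and 703 CPM in the Sox17-Erg libraries. Lyz2, the lysozyme gene of macrophages and granulocytes, gave between 32.4% and 55.4% of the summed leukocyte level. Per kilobase of exon, the median level over the 12 libraries was highest for Lyz2 at 164 CPM per kb. Next came C1qa at 27.0, C1qb at 19.6, Cd68 at 15.1, Ctss at 12.9 and C1qc at 11.6 CPM per kb. The receptor Csf1r stood at 2.21 CPM per kb and Ptprc, the pan-leukocyte CD45, at 0.140 CPM per kb. Lyz2 shared 32.8% of its 31-base words with its copy Lyz1 and Fcgr3 shared 13.4% with Fcgr2b, so counts of these genes may be split between copies.

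Both libraries numbered 1 at Week 4 stood apart. The summed level of the 39 genes was 88.2 CPM in control replicate 1 against 639 in replicate 2, and 119 CPM in Sox17-Erg replicate 1 against 554 in replicate 2. For the ratios between replicates given here, 0.1 CPM was first added to each level. Of the 37 genes that passed the count filter, 29 were then at least 2-fold higher in replicate 2 in both cultures, a pattern shown by 1.56% of all 15506 genes tested. The members' median log2 ratio of replicate 2 to replicate 1 was 2.40 in control and 2.09 in Sox17-Erg cultures at Week 4, where the median over all tested genes was -0.02 and 0.00. At Day 3 the same medians were -0.70 and -0.26, and at Day 7 they were 0.02 and 0.20. The fibroblast markers summed to 19056.1 and 15618.1 CPM in the control libraries at Week 4 and to 12363.7 and 13007.0 CPM in the Sox17-Erg libraries. Control replicate 1 at Week 4 was also the deepest library. What these libraries differ in beyond their number was not tested. Leaving out both gives 1 library in each Week 4 group, and calls lost that way are named beside the result.

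**Figure D1:**
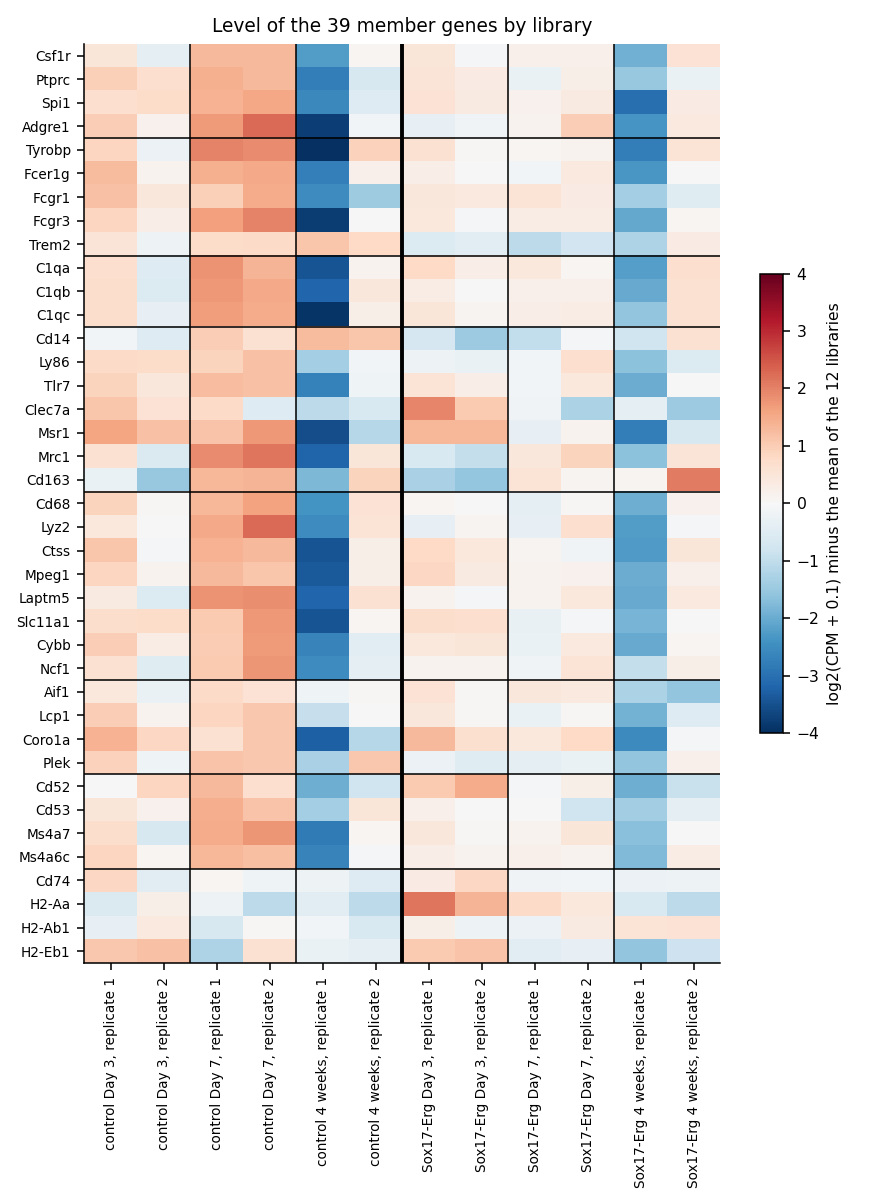
Level of each of the 39 genes in the 12 libraries, as log2(CPM + 0.1) minus the gene's mean over the libraries, with lines between functional groups and a thick line between control and Sox17-Erg libraries. Most genes were highest in the control libraries of Day 7, and 26 of the 39 had their lowest level in control replicate 1 at Week 4. The shares of all genes with these patterns were not counted.

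Most of the macrophage genes had their highest level in the control cultures at Day 7. Of the 39 genes, 29 had their highest group mean there. No fit compared Day 7 with Day 3, so this maximum was not tested, and the share of all genes with it was not counted. The summed level in controls was 743 and 458 CPM on Day 3, reached 1377 and 1824 CPM on Day 7 and stood at 88.2 and 639 CPM in Week 4. In the Sox17-Erg libraries it was 516 and 502 CPM on Day 3, then 465 and 669 CPM on Day 7 and 119 and 554 CPM in Week 4. Both control libraries of Day 7 lay above both of Day 3, whereas the Day 3 and Day 7 ranges of the Sox17-Erg libraries overlapped. Without Lyz2 the control sum was 357 ± 152 CPM at Day 3 and 799 ± 20.3 at Day 7 (SD, n = 2), and the Sox17-Erg sum was 314 ± 49.9 and 317 ± 25.4.

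In control cultures the 4 growth and lineage genes were all highest on Day 7. With Sox17-Erg the mean from Day 3 to Day 7 rose for Adgre1 but not for Csf1r, Ptprc or Spi1. Csf1r, the receptor for the macrophage growth factors CSF1 and IL-34, measured 15.3 and 8.32 CPM on Day 3, 26.9 and 26.9 on Day 7 and 2.28 and 11.6 in Week 4 in controls. Csf1r in the Sox17-Erg libraries was at 15.4 and 10.6 CPM on Day 3, 12.8 and 12.8 on Day 7 and 2.80 and 16.4 in Week 4. Ptprc measured 4.18 and 3.38 CPM on Day 3, 5.76 and 5.26 on Day 7 and 0.226 and 1.30 in Week 4 in controls. Ptprc with Sox17-Erg was at 3.04 and 2.63 CPM on Day 3, 1.74 and 2.5 on Day 7 and 0.672 and 1.74 in Week 4. Both genes were higher in both controls than in both Sox17-Erg libraries at Day 7 and overlapped at Week 4. Spi1 measured 3.06 and 3.19 CPM on Day 3, 5.07 and 5.59 on Day 7 and 0.226 and 1.26 in Week 4 in controls. With Sox17-Erg Spi1 stood at 2.83 and 2.41 CPM on Day 3, 2.10 and 2.42 on Day 7 and 0.142 and 2.37 in Week 4. Adgre1, which encodes the macrophage surface protein F4/80, measured 11.9 and 6.84 CPM on Day 3, 19.9 and 29.4 on Day 7 and 0.351 and 5.57 in Week 4 in controls. Adgre1 in the Sox17-Erg libraries was at 4.81 and 5.43 CPM on Day 3, 6.62 and 12 on Day 7 and 1.10 and 7.85 in Week 4. Both controls lay above both Sox17-Erg libraries at Day 7 for these 4 genes, and at Day 3 for Ptprc, Spi1 and Adgre1, a pattern that 28.8% of all genes showed at Day 7 and 29.9% at Day 3.

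Tyrobp, the adaptor whose phosphorylated motif recruits the kinase SYK, had the widest fold gap between control replicates of Week 4 among members above 0 in both. It measured 9.86 and 4.53 CPM on Day 3, 21.5 and 19.9 on Day 7 and 0.226 and 10.2 in Week 4 in controls. Tyrobp with Sox17-Erg was at 8.15 and 5.52 CPM on Day 3, 5.65 and 5.84 on Day 7 and 0.708 and 7.78 in Week 4, so that replicate 2 was 45.4-fold above replicate 1 in the controls at Week 4 and 11.0-fold above it with Sox17-Erg. Fcer1g, the shared chain of Fc receptors, measured 5.79 and 2.64 CPM on Day 3, 6.49 and 7.03 on Day 7 and 0.276 and 2.77 in Week 4 in controls. With Sox17-Erg Fcer1g stood at 2.88 and 2.33 CPM on Day 3, 2.18 and 3.16 on Day 7 and 0.389 and 2.37 in Week 4. Both adaptors separated the cultures on Day 7 and overlapped on Day 3. The IgG receptor Fcgr3 measured 8.04 and 5.36 CPM on Day 3, 13.8 and 17.7 on Day 7 and 0.226 and 4.43 in Week 4 in controls. Fcgr3 in the Sox17-Erg libraries was at 5.97 and 4.27 CPM on Day 3, 5.43 and 5.45 on Day 7 and 0.991 and 4.67 in Week 4. The high-affinity IgG receptor Fcgr1 measured 1.49 and 0.879 CPM on Day 3, 1.27 and 1.89 on Day 7 and 0.0251 and 0.163 in Week 4 in controls. Fcgr1 with Sox17-Erg was at 0.860 and 0.819 CPM on Day 3, 0.937 and 0.791 on Day 7 and 0.177 and 0.407 in Week 4. Each of these adaptors and receptors was lower in both Sox17-Erg libraries than in both controls at Day 7, as were 28.8% of all genes.

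The chains of complement C1q, which are built in equal numbers into the secreted protein, kept close ratios. C1qa measured 35.0 and 15.3 CPM on Day 3, 75.6 and 56.9 on Day 7 and 1.90 and 23.9 in Week 4 in controls. With Sox17-Erg C1qa stood at 37.9 and 26.6 CPM on Day 3, 29.5 and 23.0 on Day 7 and 4.64 and 34.7 in Week 4. C1qb measured 29.5 and 12.3 CPM on Day 3, 60.3 and 51.0 on Day 7 and 1.90 and 24.5 in Week 4 in controls. C1qb in the Sox17-Erg libraries was at 22.1 and 17.8 CPM on Day 3, 20.5 and 20.6 on Day 7 and 4.39 and 27.7 in Week 4. Both chains were lower in both Sox17-Erg libraries on Day 7, as were 28.8% of all genes, and overlapped on Day 3 and in Week 4. C1qc measured 30.0 and 14.7 CPM on Day 3, 60.0 and 52.3 on Day 7 and 1.13 and 21.9 in Week 4 in controls. C1qc with Sox17-Erg was at 25.8 and 20.0 CPM on Day 3, 22.3 and 22.6 on Day 7 and 6.12 and 28.6 in Week 4. The ratio of C1qa to C1qb stayed between 0.977 and 1.71 over the 12 libraries and that of C1qc to C1qb between 0.592 and 1.40, while C1qa itself spanned 39.7-fold.

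**Figure D2:**
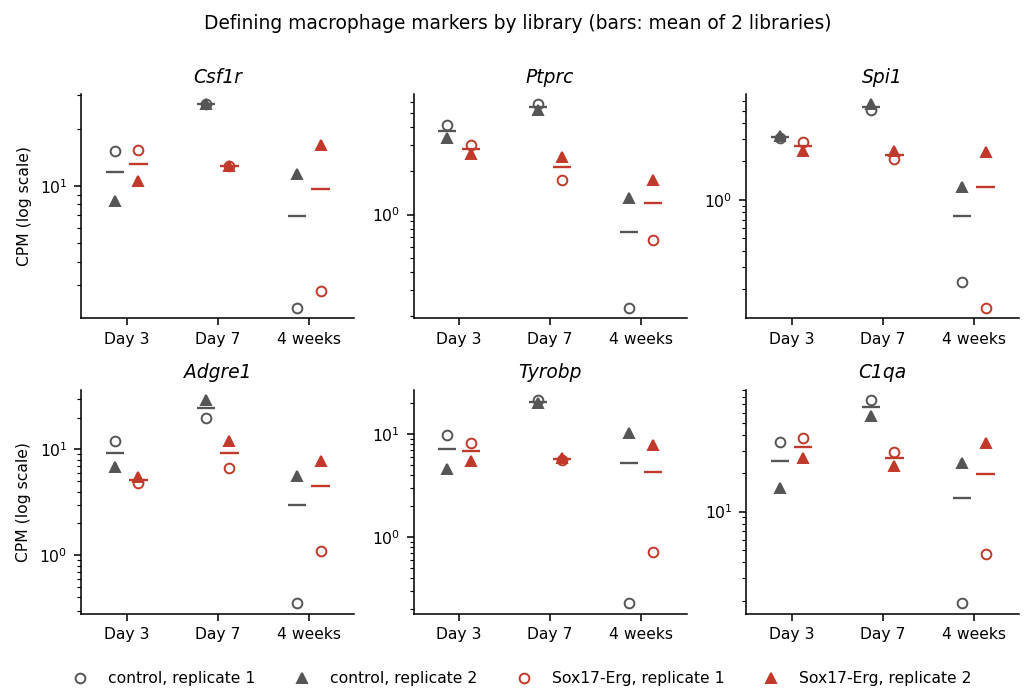
CPM on a log scale of 6 defining markers at the 3 time points, with control libraries in gray, Sox17-Erg libraries in red, replicate 1 as open circles, replicate 2 as triangles and bars at the mean of 2 libraries. For all 6 genes both controls lie above both Sox17-Erg libraries at Day 7, and at Week 4 replicate 1 lies below replicate 2 in both cultures. Of all genes, 28.8% showed the first order and 26.1% the second.

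Among scavenger and pattern receptors, the mannose receptor Mrc1 was the most abundant in CPM. It measured 60.8 and 26.7 CPM on Day 3, 148 and 175 on Day 7 and 4.21 and 55.3 in Week 4 in controls. With Sox17-Erg Mrc1 stood at 25.8 and 20.7 CPM on Day 3, 54.9 and 73.7 on Day 7 and 12.6 and 57.0 in Week 4. For Mrc1 both controls lay above both Sox17-Erg libraries on Day 3 and Day 7, as for 29.9% and 28.8% of all genes. Msr1, the class A scavenger receptor, measured 12 and 9.02 CPM on Day 3, 8.95 and 13.5 on Day 7 and 0.251 and 1.75 in Week 4 in controls. Msr1 in the Sox17-Erg libraries was at 10.1 and 10.1 CPM on Day 3, 3.12 and 4.39 on Day 7 and 0.496 and 2.48 in Week 4, so it was highest early with Sox17-Erg. Cd163, the hemoglobin-haptoglobin receptor, shared the Day 7 level of the group but not its Week 4 level with Sox17-Erg. It measured 2.44 and 0.971 CPM on Day 3, 7.68 and 7.80 on Day 7 and 0.777 and 5.61 in Week 4 in controls. Cd163 with Sox17-Erg was at 1.16 and 0.948 CPM on Day 3, 4.44 and 3.21 on Day 7 and 3.19 and 13 in Week 4, so its highest library was Sox17-Erg replicate 2 at Week 4. The ratio of Cd163 to Csf1r within a library was 0.160 and 0.117 in controls at Day 3 and 0.341 and 0.483 at Week 4. With Sox17-Erg it was 0.0754 and 0.0891 at Day 3 and 1.14 and 0.795 at Week 4, and the libraries of the 2 times did not overlap in either culture. Tlr7, which senses single-stranded RNA, measured 5.13 and 3.75 CPM on Day 3, 6.45 and 6.15 on Day 7 and 0.326 and 2.40 in Week 4 in controls. With Sox17-Erg Tlr7 stood at 3.95 and 3.27 CPM on Day 3, 2.51 and 3.65 on Day 7 and 0.602 and 2.74 in Week 4. Ly86, a partner of the receptor RP105, ranged from 0.106 to 1.33 CPM and also had both controls above both Sox17-Erg libraries at Day 7. The fungal glucan receptor Clec7a had its highest mean on Day 3 in both cultures. It measured 1.56 and 1.06 CPM on Day 3, 1.23 and 0.442 on Day 7 and 0.276 and 0.407 in Week 4 in controls. Clec7a in the Sox17-Erg libraries was at 2.88 and 1.51 CPM on Day 3, 0.607 and 0.220 on Day 7 and 0.496 and 0.185 in Week 4.

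Trem2, a lipid-sensing receptor that signals through TYROBP, and Cd14, the lipopolysaccharide co-receptor, kept their level in the control library where most other genes were low. Trem2 measured 6.59 and 4.02 CPM on Day 3, 7.76 and 7.88 on Day 7 and 10.1 and 8.01 in Week 4 in controls. Trem2 with Sox17-Erg was at 3.14 and 3.32 CPM on Day 3, 2.18 and 2.68 on Day 7 and 1.88 and 5.78 in Week 4. Cd14 measured 1.24 and 0.925 CPM on Day 3, 2.77 and 2.13 on Day 7 and 3.38 and 3.05 in Week 4 in controls. With Sox17-Erg Cd14 stood at 0.810 and 0.431 CPM on Day 3, 0.634 and 1.32 on Day 7 and 0.743 and 2.11 in Week 4. Both genes had their highest library in control replicate 1 at Week 4, where the ratio of Trem2 to its adaptor Tyrobp was 44.9 against 0.361 to 2.65 in the other 11 libraries. The source of Trem2 and Cd14 transcripts in that library was not tested.

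The genes of the lysosome and of killing included the most abundant member, Lyz2. Lyz2 measured 278 and 208 CPM on Day 3, 593 and 1011 on Day 7 and 36.1 and 303 in Week 4 in controls. Lyz2 in the Sox17-Erg libraries was at 167 and 224 CPM on Day 3, 166 and 334 on Day 7 and 44.2 and 199 in Week 4. Cd68, a lysosomal glycoprotein, measured 34.1 and 18.9 CPM on Day 3, 46.0 and 56.8 on Day 7 and 3.41 and 27.7 in Week 4 in controls. Cd68 with Sox17-Erg was at 19.2 and 18 CPM on Day 3, 14.4 and 18.8 on Day 7 and 4.64 and 20.5 in Week 4. The protease gene Ctss, the pore-forming Mpeg1, the lysosomal Laptm5, the metal transporter Slc11a1 and the NADPH oxidase subunits Cybb and Ncf1 followed the same order. On Day 7 Ctss averaged 35.7 ± 1.77 CPM in controls and 13.8 ± 1.75 CPM with Sox17-Erg (SD, n = 2). Mpeg1 averaged 59.5 ± 5.42 CPM in controls and 28.8 ± 0.371 CPM with Sox17-Erg, and Laptm5 averaged 49.9 ± 1.71 CPM in controls and 17.3 ± 2.42 CPM with Sox17-Erg. Slc11a1, which withholds metals from engulfed microbes, averaged 10.3 ± 3.39 CPM in controls and 3.29 ± 0.322 CPM with Sox17-Erg. The oxidase genes were close to each other, with Cybb at 10.4 ± 3.53 CPM in controls and 4.19 ± 1.40 CPM with Sox17-Erg and Ncf1 at 10.5 ± 3.53 CPM in controls and 4.51 ± 1.51 CPM with Sox17-Erg. In all 8 genes of this group both controls lay above both Sox17-Erg libraries at Day 7, an order shown by 28.8% of all tested genes. Replicate 2 lay above replicate 1 in both cultures at Week 4 in all 8, as it did for 26.1% of all tested genes.

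The cytoskeletal and membrane genes of leukocytes were more mixed. Aif1, the calcium-binding protein IBA1, stayed between 0.185 and 1.34 CPM and measured 1.02 and 0.601 CPM on Day 3, 1.34 and 1.17 on Day 7 and 0.651 and 0.773 in Week 4 in controls. With Sox17-Erg Aif1 stood at 1.16 and 0.776 CPM on Day 3, 1.05 and 1.01 on Day 7 and 0.248 and 0.185 in Week 4. Both Sox17-Erg libraries of Week 4 were below all others for Aif1. Lcp1, an actin-bundling protein, measured 26.7 and 15.1 CPM on Day 3, 24.7 and 29.1 on Day 7 and 7.14 and 13.5 in Week 4 in controls. Lcp1 in the Sox17-Erg libraries was at 18.6 and 14.1 CPM on Day 3, 11.2 and 13.9 on Day 7 and 3.57 and 9.56 in Week 4. Lcp1 separated the cultures on Day 7, with both controls above as for 28.8% of all genes, and overlapped in Week 4. Coro1a, an actin regulator of leukocytes, measured 3.09 and 2.03 CPM on Day 3, 1.73 and 2.45 on Day 7 and 0.0251 and 0.447 in Week 4 in controls. Coro1a with Sox17-Erg was at 2.88 and 1.77 CPM on Day 3, 1.52 and 1.98 on Day 7 and 0.106 and 1.07 in Week 4. Coro1a overlapped between the cultures at all 3 times. Plek, a substrate of protein kinase C, averaged 14.2 ± 0.656 CPM in controls and 5.17 ± 0.332 CPM with Sox17-Erg on Day 7 (SD, n = 2). On the membrane side the tetraspanin gene Cd53 measured 5.35 and 4.21 CPM on Day 3, 10.4 and 8.36 on Day 7 and 1.40 and 5.33 in Week 4 in controls. With Sox17-Erg Cd53 stood at 4.35 and 3.75 CPM on Day 3, 3.72 and 2.11 on Day 7 and 1.38 and 2.89 in Week 4. Ms4a7 ranged from 0.476 to 13.9 CPM and Ms4a6c from 1.15 to 20.2 CPM over the 12 libraries, both highest in a control library of Day 7. Ms4a6c shared 21.9% of its 31-base words with Ms4a6b. Cd52 did not exceed 0.991 CPM in any library. The MHC class II genes, which present antigen to T cells, did not exceed 1.06 CPM in any library. Cd74, the invariant chain, did not exceed 0.259 CPM, H2-Ab1 did not exceed 0.222 CPM, H2-Aa reached 0.810 CPM in a Sox17-Erg library of Day 3, and H2-Eb1 reached 1.06 CPM in a control library of Day 3. Cd74 and H2-Ab1 failed the count filter and were not tested.

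Many macrophage genes carry binding sites for PU.1, and promoters are shown here for genes that were lower together at Day 7. Promoters of 300 bases were read from RefSeq on GRCm38.p6 for 28 of the 39 genes. The letters GAGGAA, a core of PU.1 sites, were searched on both strands and were present for 17 of these 28 genes (60.7%) and for 8446 of all 27025 genes with a promoter (31.3%). A match is a description of letters and not of binding. The sequences are the 200 bases before the RefSeq start for 4 genes from 4 functional groups, picked after their values and letters were seen among those called lower at Day 7 with a replicate block. They were taken from genes that hold the match, which 11 of the 28 genes lack, and are written 5′ to 3′ on the gene's strand, with GAGGAA or its reverse complement TTCCTC in capitals. They cover chr4:136886201-136886400 on the minus strand for C1qb, chr2:14229214-14229413 on the plus strand for Mrc1, chr3:95526586-95526785 on the plus strand for Ctss and chr17:48346201-48346400 on the plus strand for Trem2.
C1qb: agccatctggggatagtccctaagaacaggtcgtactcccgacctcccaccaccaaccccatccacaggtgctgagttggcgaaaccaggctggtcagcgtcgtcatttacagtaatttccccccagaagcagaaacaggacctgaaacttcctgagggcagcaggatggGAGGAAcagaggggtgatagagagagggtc
Mrc1: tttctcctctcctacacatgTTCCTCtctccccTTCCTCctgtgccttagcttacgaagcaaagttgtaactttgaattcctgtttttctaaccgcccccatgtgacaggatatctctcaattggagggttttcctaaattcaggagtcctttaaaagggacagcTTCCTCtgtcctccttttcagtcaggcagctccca
Ctss: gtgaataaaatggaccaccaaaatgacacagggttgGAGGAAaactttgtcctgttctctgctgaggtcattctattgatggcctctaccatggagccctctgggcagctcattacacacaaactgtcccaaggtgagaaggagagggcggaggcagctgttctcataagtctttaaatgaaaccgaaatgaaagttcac
Trem2: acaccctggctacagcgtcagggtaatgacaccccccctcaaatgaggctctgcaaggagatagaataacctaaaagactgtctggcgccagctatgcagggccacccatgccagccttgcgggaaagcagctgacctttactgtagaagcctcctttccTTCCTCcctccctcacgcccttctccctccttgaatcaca

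The first comparison asked whether Sox17-Erg changed the macrophage genes at Day 3. None of the 37 tested members passed the threshold, an adjusted p under 0.05 in edgeR's quasi-likelihood test over all genes, where 7.19% of all genes were called higher and 5.13% lower. DESeq2 also called 0, and at an unadjusted p under 0.05 edgeR found 1 member higher and 0 lower. The median log2 fold change was -0.23 over the members and 0.01 over all genes. For 9 tested members both controls lay above both Sox17-Erg libraries, against 29.9% of all genes, and for 2, Cd52 and H2-Aa, both lay below, against 34.1% of all genes.

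The log2 fold changes of the defining markers at Day 3 lay between -0.87 and 0.36 with errors of 0.62 to 1.23. Csf1r was at 0.14 ± 0.80 (SE, edgeR adjusted p = 0.93) and Tyrobp at -0.08 ± 1.23 (adjusted p = 0.97). C1qa was at 0.36 ± 1.02 (adjusted p = 0.85), Spi1 at -0.25 ± 0.89 (adjusted p = 0.88) and Ptprc at -0.42 ± 0.62 (adjusted p = 0.70). Adgre1 was at -0.87 ± 1.02 (adjusted p = 0.61). With each time point's replicate number as a block these errors were 0.14 for Csf1r and 0.34 for Tyrobp, and no member was called either, with 1 higher and 3 lower at an unadjusted p under 0.05.

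At Day 7 most of the macrophage genes measured lower with Sox17-Erg, and the number that passed the test depended on how the spread was estimated. The log2 fold change was negative for 36 of 37 tested members, with a median of -1.33 against 0.01 over all genes. Both controls lay above both Sox17-Erg libraries for 33 of the 37 tested members, against 28.8% of all genes, and below them for H2-Aa, against 29.0% of all genes. The unblocked fit, in which all 6 groups share the estimate of spread, called only Trem2 lower, at -1.69 ± 0.45 (SE, edgeR adjusted p = 0.033), where 7.93% of all genes were called lower and 9.48% higher. It called 0 members higher, and at an unadjusted p under 0.05 it found 0 higher and 4 lower. DESeq2 called 2 members lower, Trem2 and Cd53, where it called 10.4% of all genes lower, and 0 members higher. The call of Trem2 was lost when any 1 of the 4 Day 7 libraries was left out, with an edgeR adjusted p from 0.07 to 0.21. The fibroblast markers summed to 24412.3 and 32394.5 CPM in the controls at Day 7 and to 32026.1 and 35121.4 CPM with Sox17-Erg, and the part of culture makeup in the result was not tested.

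Same-numbered libraries of a time point deviated together, and with a replicate block within time points edgeR called 28 of the 37 tested members lower at Day 7, where 13.3% of all genes were called lower. Tyrobp changed by -1.85 ± 0.33 (SE, edgeR adjusted p = 0.008 with the block), Csf1r by -1.07 ± 0.13 (adjusted p = 0.002) and C1qa by -1.33 ± 0.20 (adjusted p = 0.0042). Adgre1 changed by -1.44 ± 0.28 (adjusted p = 0.011), Ptprc by -1.40 ± 0.32 (adjusted p = 0.019) and Spi1 by -1.24 ± 0.32 (adjusted p = 0.029). Without the block the same genes were at -1.85 ± 1.24 (adjusted p = 0.34), -1.07 ± 0.79 (0.39), -1.33 ± 1.02 (0.41), -1.41 ± 0.99 (0.36), -1.38 ± 0.62 (0.16) and -1.24 ± 0.89 (0.37). The calls with the block comprised all 4 growth and lineage genes, all 3 C1q chains, all 8 lysosome and killing genes and 4 of 5 Fc receptor and adaptor genes. They also took in 4 of 7 scavenger and pattern receptors, 3 of 4 leukocyte membrane genes, 2 of 4 cytoskeletal genes and neither tested MHC class II gene.

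The Day 7 call depended on which libraries set the spread. With the 4 Day 7 libraries fitted by themselves 18 of 35 tested members were called lower, where 3.29% of all genes were. A fit without both Week 4 libraries numbered 1 called 20 of 37 lower, where 6.08% of all genes were, and both sets lay within the 28. With no filter on low counts 17 of 39 were lower, also within the 28, where 6.73% of 25680 genes were. Over all 21 fits made, including those that left out 1 library, in which 34 to 39 members were tested, between 34 and 37 members had a negative log2 fold change and the members' median lay between -1.38 and -1.14.

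**Figure D3:**
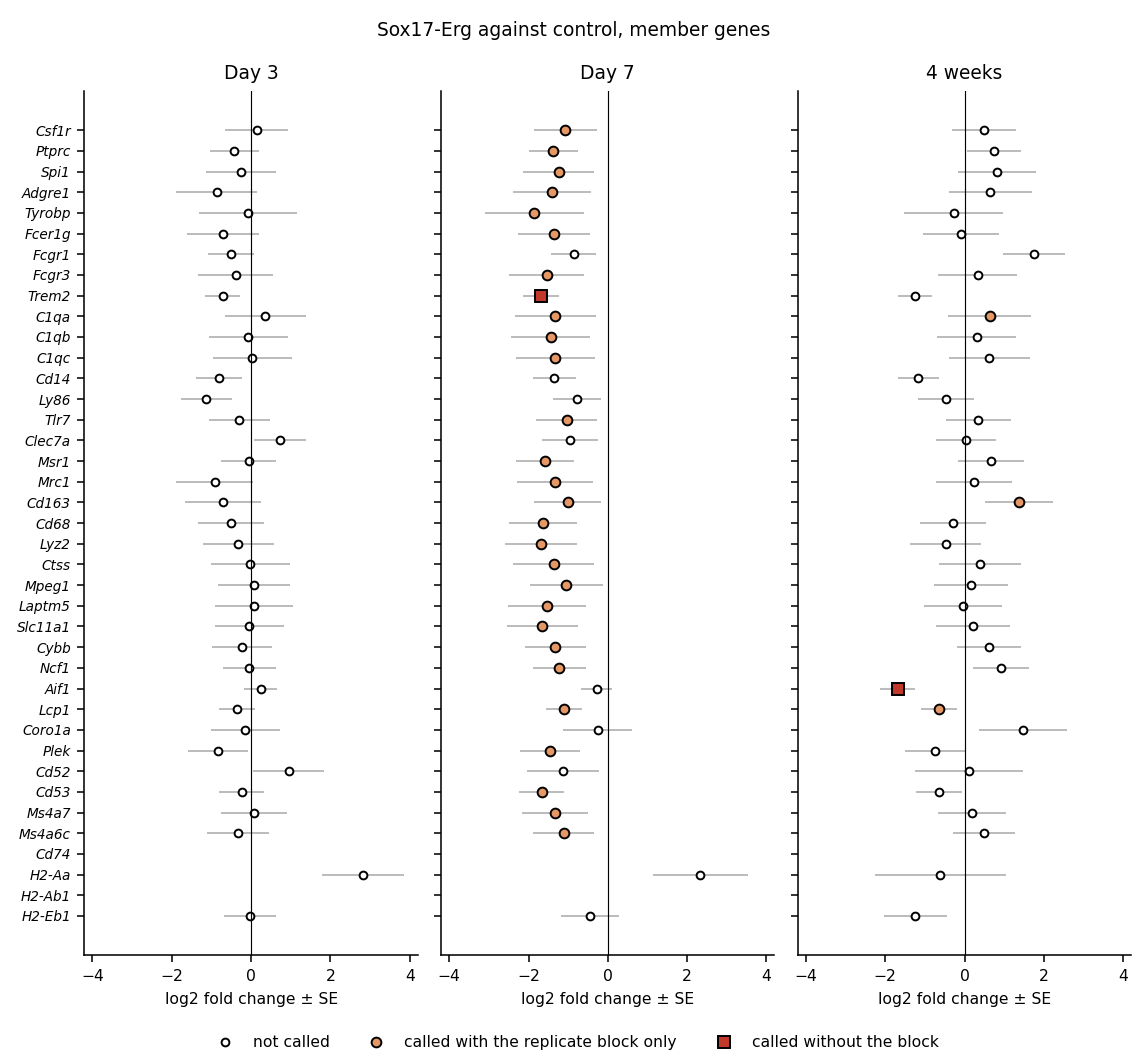
Log2 fold change of Sox17-Erg against control for each member at each time point, with the SE of the unblocked edgeR fit, red squares for genes called without the replicate block, orange circles for those called with it only and open circles for the rest. At Day 7 all points but H2-Aa lie left of 0, and Cd74 and H2-Ab1 have no point because they were not tested.

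At Week 4 the macrophage genes overlapped between the cultures. The members' median log2 fold change was 0.21 and that of all genes -0.01. Single libraries set this median, which was -0.65 without control replicate 1, 2.44 without control replicate 2, 0.93 without Sox17-Erg replicate 1, -1.35 without Sox17-Erg replicate 2 and 0.00 without both libraries numbered 1. For 4 tested members, Trem2, Cd14, Aif1 and H2-Eb1, both controls lay above both Sox17-Erg libraries, against 32.4% of all genes, and for 1, Fcgr1, both lay below, against 30.3% of all genes. Aif1 alone was called lower, at -1.69 ± 0.45 (SE, edgeR adjusted p = 0.025), and 0 members were called higher, where 11.0% of all genes were called lower and 11.9% higher. Aif1 had low counts at Week 4, 26 and 19 in controls and 7 and 5 with Sox17-Erg. At an unadjusted p under 0.05 edgeR found 0 higher and 2 lower. DESeq2 gave Aif1 an adjusted p of 0.051 and called Trem2 instead, at an adjusted p of 0.035. With no filter on low counts edgeR likewise gave Aif1 0.057 and called Trem2 lower and Cd163 higher, where 7.98% of all genes were higher, and with only the compared groups Aif1 was at -1.66 (0.083). Without both Week 4 libraries numbered 1 Aif1 was at -2.03 ± 0.71 (edgeR adjusted p = 0.16), and leaving out any 1 of the 4 libraries of Week 4 gave it an adjusted p from 0.072 to 0.12.

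With the replicate block within time points 2 members were called in each direction at Week 4, where 15.5% of all genes were called higher and 15.5% lower. Cd163 was higher with Sox17-Erg by 1.57 ± 0.31 (SE, edgeR adjusted p = 0.0095) and C1qa by 0.83 ± 0.22 (adjusted p = 0.03). Aif1 was lower by -1.69 ± 0.45 (adjusted p = 0.03) and Lcp1 by -0.73 ± 0.17 (adjusted p = 0.018). Without the block Cd163 was at 1.37 ± 0.85 (adjusted p = 0.28), C1qa at 0.63 ± 1.04 (0.71) and Lcp1 at -0.64 ± 0.46 (0.36). The other defining markers were not called in either fit. In the unblocked fit Csf1r was at 0.49 ± 0.81 (0.71), Ptprc at 0.73 ± 0.68 (0.49) and Spi1 at 0.82 ± 0.98 (0.59), Adgre1 at 0.65 ± 1.05 (0.71) and Tyrobp at -0.27 ± 1.25 (0.91), each with the SE and the edgeR adjusted p. Leaving out control replicate 2 gave 7 members higher, where 8.27% of all genes were, and 0 lower, with 23 higher and 2 lower at an unadjusted p under 0.05 in edgeR. Leaving out Sox17-Erg replicate 2 gave 0 higher and 2 lower, Trem2 and Cd14, where 7.21% of all genes were lower, with 0 higher and 5 lower unadjusted.

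**Figure D4:**
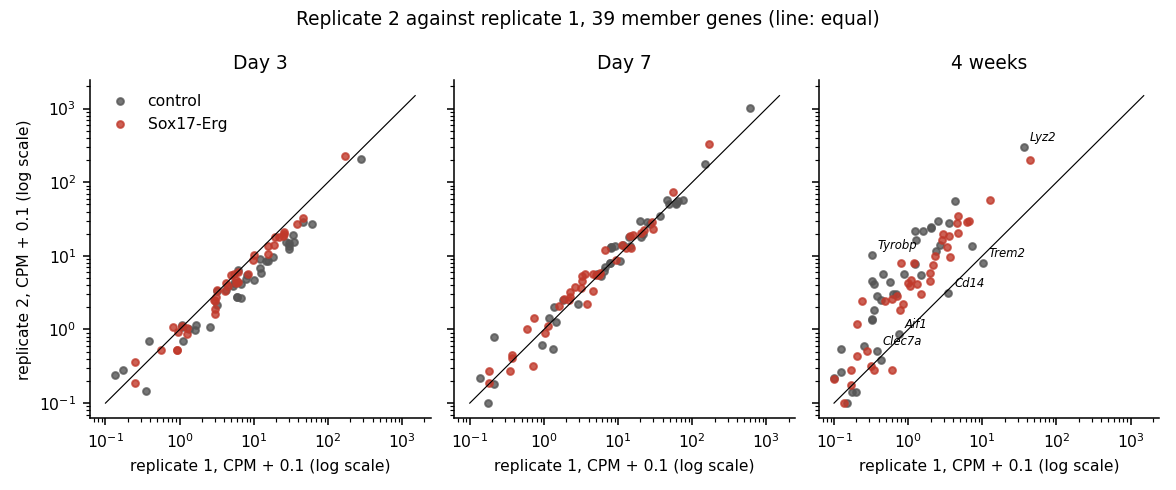
Level of the 39 genes in replicate 2 against replicate 1, as CPM + 0.1 on log scales, for each time point, with control cultures in gray, Sox17-Erg cultures in red and a line of equality. At Week 4 most points of both cultures lie above the line, while Trem2 and Cd14 of the control cultures lie on or below it.

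Over time, Week 4 against Day 3, few members passed the test and most of those fell. In control cultures 4 of 37 tested members fell and 0 rose, where 12.6% of all genes fell and 13.9% rose. DESeq2 called 5 lower and 1 higher, where it called 13.5% of all genes lower and 15.1% higher, and at an unadjusted p under 0.05 edgeR found 10 lower and 1 higher. Fcgr1 changed by -3.78 ± 0.73 (SE, edgeR adjusted p = 0.0065), Coro1a by -3.59 ± 1.06 (adjusted p = 0.034), Msr1 by -3.48 ± 0.82 (adjusted p = 0.015) and Ptprc by -2.38 ± 0.67 (adjusted p = 0.03). The Week 4 control libraries held only 1 and 4 counts of Fcgr1 and 1 and 11 of Coro1a. The number of calls and the genes called depended on the filter, the block and the libraries in the fit. With no filter on low counts 17 of 39 members were lower, where 8.52% of all genes were, and 1, Cd14, was higher, where 9.43% were. A replicate block over all libraries called 7 of 37 lower, where 13.1% of all genes were. With only the compared groups 4 members were again lower, where 12.1% of all genes were, but Ptprc (0.08) and Coro1a (0.055) missed the threshold and Clec7a and H2-Eb1 took their place. That fit also called Cd14 higher, where 14.9% of all genes were. The first 4 and Spi1 were lower without both Week 4 libraries numbered 1, where 4.01% of all genes were. Leaving out replicate 2 at Week 4 raised the count to 23 of 37, where 8.42% of all genes were lower, and leaving out replicate 1 lowered it to 1, Fcgr1, where 4.93% were. Of the control libraries of Day 3, leaving out replicate 1 gave 1 member lower, where 5.48% of all genes were, and leaving out replicate 2 gave 2, where 5.9% were.

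In Sox17-Erg cultures 6 members fell and 1 rose between Day 3 and Week 4, where 15.6% of all genes fell and 15.1% rose. Cd163 rose by 2.94 ± 0.93 (SE, edgeR adjusted p = 0.041). Clec7a changed by -2.66 ± 0.72 (adjusted p = 0.021), Msr1 by -2.76 ± 0.78 (adjusted p = 0.026) and Aif1 by -2.13 ± 0.45 (adjusted p = 0.0085). The low-count H2-Eb1 changed by -2.93 ± 0.77 (adjusted p = 0.02), Cd52 by -3.85 ± 1.12 (adjusted p = 0.029) and H2-Aa by -4.77 ± 1.24 (adjusted p = 0.019). In DESeq2 H2-Aa was not called and Lcp1 was called lower. Cd52 had 37 counts at Day 3 and 3 at Week 4, a ratio of 15.9 with an exact 95% interval of 5.02 to 80.4 for counting error only. H2-Aa had 26 and 1 counts, a ratio of 33.4 with an interval of 5.49 to 1370.7. Without both Week 4 libraries numbered 1, only Msr1 of the 6 was still called lower, where 4.95% of all genes were, and Cd163 was still called higher. Most of the lost calls kept a large fold change, with Aif1 at -2.35 (edgeR adjusted p = 0.06), Clec7a at -3.53 (0.068), Cd52 at -2.88 (0.076) and H2-Eb1 at -2.40 (0.16). With no filter 9 of 39 members were lower, where 9.19% of all genes were, and with the stricter filter 3 of 34 were, where 17.4% of all genes were. Leaving out Sox17-Erg replicate 1 of Day 3 gave 0 lower in edgeR, with 6 at an unadjusted p under 0.05 and 5.5% of all genes called lower, and leaving out replicate 2 gave 3, where 9.0% of all genes were. Leaving out Week 4 replicate 1 gave 1, where 5.0% of all genes were lower. Leaving out Week 4 replicate 2 gave 6, where 10% were, and 3 of them were among the first 6. Cd163 was at 1.59 (edgeR adjusted p = 0.26) without Week 4 replicate 2 and also missed the threshold without each of 7 other libraries in turn, at an adjusted p from 0.05 to 0.17.

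In the unblocked edgeR fit of all libraries with the count filter, no defining marker but Ptprc was called over time. With no filter on low counts Spi1 and Adgre1 were also called lower in controls. In controls Csf1r changed by -0.79 ± 0.81 (SE, edgeR adjusted p = 0.50), Spi1 by -2.14 ± 0.97 (0.13), Adgre1 by -1.72 ± 1.05 (0.26), Tyrobp by -0.50 ± 1.24 (0.80) and C1qa by -0.99 ± 1.04 (0.52). With Sox17-Erg Csf1r changed by -0.44 ± 0.80 (0.71), Ptprc by -1.23 ± 0.65 (0.18), Spi1 by -1.06 ± 0.93 (0.42), Adgre1 by -0.20 ± 1.03 (0.90), Tyrobp by -0.69 ± 1.25 (0.72) and C1qa by -0.72 ± 1.02 (0.64). Without both Week 4 libraries numbered 1, the Sox17-Erg values of Csf1r, Adgre1, Tyrobp and C1qa turned positive, at 0.34, 0.62, 0.19 and 0.11, and so did Tyrobp in controls, at 0.50.

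The change of the Sox17-Erg effect between Day 3 and Week 4 was tested as a difference of differences. No member was called by edgeR in either direction, where 2.22% of all genes were called higher and 0.987% lower. DESeq2 called 0, and at an unadjusted p under 0.05 edgeR found 1 member higher and 1 lower. With the replicate block within time points Cd163 alone of the members was called, where 4.11% of all genes were called higher, with a difference of 2.17 ± 0.48 (SE, edgeR adjusted p = 0.045), against 2.08 ± 1.27 (adjusted p = 0.47) without the block.

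Genes that feed or extend the macrophage program were followed beside the members. Csf1, the growth factor read by CSF1R, measured 1671 and 1598 CPM in controls on Day 3, then 1110.2 and 934 CPM on Day 7 and 1197 and 1289 CPM in Week 4. With Sox17-Erg it measured 719.7 and 939.7 CPM on Day 3, then 567 and 568 CPM on Day 7 and 366 and 374 CPM in Week 4. Csf1 was lower with Sox17-Erg by -0.98 ± 0.16 at Day 3 (SE, edgeR adjusted p = 0.0084), by -0.85 ± 0.16 at Day 7 (adjusted p = 0.008) and by -1.75 ± 0.17 at Week 4 (adjusted p = 0.00015). The Day 3 call of Csf1 was lost without replicate 1 of either culture at Day 3 (edgeR adjusted p of 0.063 and 0.074). The Day 7 call was lost with only the compared groups, at -0.87 (0.066), and without Sox17-Erg replicate 1 of Day 7 (0.062), while the Week 4 call held in all 12 fits that left out 1 library. Il34, the other ligand, was at -1.21 ± 0.33 at Week 4 (adjusted p = 0.029). That call was lost without both Week 4 libraries numbered 1, at -1.22 (adjusted p = 0.20), and in 4 of 12 fits that left out 1 library. Csf1 also fell over time with Sox17-Erg, by -1.16 ± 0.16 (adjusted p = 0.0017). The libraries of the cultures did not overlap for Csf1 at any of the 3 times. Both controls lay above both Sox17-Erg libraries for 29.9% of all genes on Day 3, 28.8% on Day 7 and 32.4% in Week 4.

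In a list of 19 further macrophage genes, 17 were tested, of which 1 was called higher and 1 lower with Sox17-Erg on Day 3. On Day 7 edgeR called 0 higher and 1 lower, with 1 higher and 5 lower at an unadjusted p under 0.05, and in Week 4 it called 1 higher and 1 lower. Of all genes, 7.19% were called higher and 5.13% lower on Day 3, 9.48% and 7.93% on Day 7 and 11.9% and 11.0% in Week 4. The gene of the list called lower was Mertk, a receptor for dying cells, at all 3 times. Mertk changed by -1.49 ± 0.22 (SE, edgeR adjusted p = 0.0049) at Day 3, -1.13 ± 0.21 (0.0077) at Day 7 and -1.12 ± 0.21 (0.0056) at Week 4. In controls Mertk measured 119 and 150.0 CPM at Week 4, and so did not follow the gap between replicates that Tyrobp showed. Cx3cr1, the fractalkine receptor, was higher with Sox17-Erg at Day 3, at 3.51 ± 0.86 (0.032), and at Week 4, at 4.16 ± 1.13 (0.027). The Week 4 call of Cx3cr1 was lost without both libraries numbered 1, at 4.03 (0.18), and in 3 of 12 fits without 1 library, and the Day 3 call was lost with only the compared groups (0.063) and in 2 such fits. The Week 4 call of Mertk was lost without both libraries numbered 1, at -1.12 (0.08), and its call at each time was lost without Sox17-Erg replicate 1 of that time (0.06, 0.078 and 0.059). Cx3cr1 measured 0.728 and 0.0462 CPM in controls at Day 3 against 6.17 and 3.19 CPM with Sox17-Erg.

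Between Day 3 and Week 4, 13.9% of all genes rose and 12.6% fell in controls, and 15.1% rose and 15.6% fell with Sox17-Erg. The list of further macrophage genes held 0 genes that rose and 1 that fell in controls, with 1 higher and 3 lower at an unadjusted p under 0.05, and 3 that rose and 0 that fell with Sox17-Erg, with 3 higher and 2 lower unadjusted, all by edgeR. Those that rose with Sox17-Erg were F13a1, a transglutaminase of resident macrophages, by 4.54 ± 1.07 (SE, edgeR adjusted p = 0.013), Cbr2 by 3.80 ± 1.08 (0.026) and Mertk by 0.67 ± 0.21 (0.042). Of the 12 fits that left out 1 library, 3 lost the call of F13a1 (2.76 to 5.36 over the 12), 3 that of Cbr2 (2.0 to 4.63) and 5 that of Mertk (0.48 to 0.88). F13a1 measured 0.962 and 1.47 CPM on Day 3, then 18.7 and 23.2 CPM on Day 7 and 8.32 and 48.8 CPM in Week 4. In controls the chemokine Ccl4 changed by -4.57 ± 1.10 (SE, edgeR adjusted p = 0.016). Ccl4 was lost in 3 of 12 such fits and was at -4.22 (0.10) without both Week 4 libraries numbered 1, and Mertk with Sox17-Erg at 0.83 (0.069). With the replicate block within time points 11 of the 17 tested genes were lower with Sox17-Erg at Day 7 and 1 was higher, where 13.3% of all genes were lower and 13.8% higher. Of Week 4 values 3 were higher and 1 lower with that block, where 15.5% of all genes were called in each direction.

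**Figure D5:**
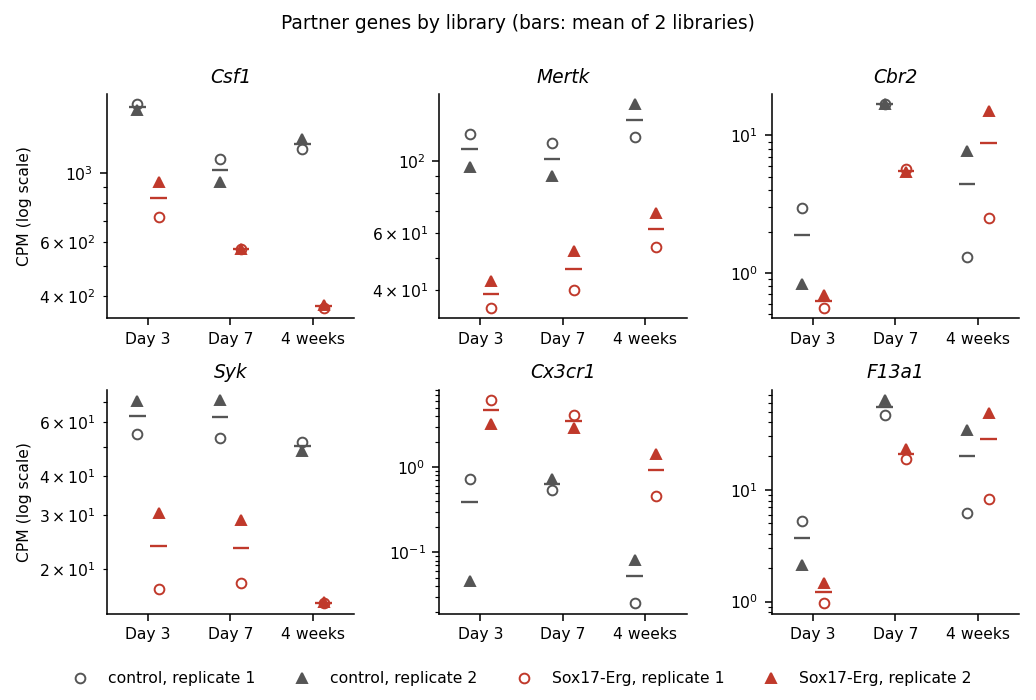
CPM on a log scale of Csf1, Mertk, Cbr2, Syk, Cx3cr1 and F13a1 by library, with control libraries in gray, Sox17-Erg libraries in red, replicate 1 as open circles, replicate 2 as triangles and bars at the mean of 2 libraries. Csf1, Mertk and Syk are lower in both Sox17-Erg libraries than in both controls at each time, Cx3cr1 is higher, and F13a1 and Cbr2 share the replicate gap at Week 4. Depending on the time, 28.8% to 32.4% of all genes had both controls above both Sox17-Erg libraries, and 29.0% to 34.1% had them below.

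Signal transducers of TREM2 and the Fc receptors gave few calls. Of 8 genes tested, Syk fell with Sox17-Erg at Day 3 by -1.39 ± 0.29 (SE, edgeR adjusted p = 0.019), at Day 7 by -1.41 ± 0.29 (0.012) and at Week 4 by -1.68 ± 0.30 (0.0039). Its Day 3 call was lost without control replicate 1 (0.063), control replicate 2 (0.11) or Sox17-Erg replicate 1 (0.14) of Day 3, and its Day 7 call without control replicate 2 (0.07) or Sox17-Erg replicate 1 (0.10) of Day 7. Plcg2, a phospholipase downstream of SYK, was higher at Week 4 by 1.19 ± 0.23 (0.0056). Without both Week 4 libraries numbered 1 neither Week 4 call held, with Syk at -1.62 (0.11) and Plcg2 at 0.87 (0.17), and the Day 3 value of Syk was -1.39 (0.052). Over time in controls Plcg2 was then at -1.12 (0.054), and with Sox17-Erg Cyba was at -0.46 (0.066). With the block 5 of the 8 were lower at Day 7, where 13.3% of all genes were. Over time Plcg2 fell in controls by -1.23 ± 0.23 (0.0054), and the kinase gene Lyn fell with Sox17-Erg by -1.04 ± 0.22 (0.0079), a call lost without Week 4 replicate 1 (0.071). Of the 4 partners of the NADPH oxidase, 0 were called between cultures by edgeR without the block, with 1 lower at an unadjusted p under 0.05 at Day 7. With the block within time points Rac2, a small GTPase of the oxidase, was lower at Day 7 by -1.36 ± 0.41 (0.049). Over time Cyba fell by -0.64 ± 0.12 (0.0055) in controls and by -0.57 ± 0.12 (0.0083) with Sox17-Erg, the latter lost in 2 of 12 fits that left out 1 library. None of the 3 tested genes of MHC class II loading was called by edgeR in any comparison, and at an unadjusted p under 0.05 it found 1 lower at Day 3, 1 lower over time in controls and 1 higher over time with Sox17-Erg.

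Of the markers of other blood cells, those of natural killer cells and neutrophils were the closest to 0. The 9 T cell genes summed to between 1.02 and 6.74 CPM, with Cd2 at 0 in every library and Cd3e at no more than 0.364 CPM. The 5 B cell genes summed to between 0.531 and 2.43 CPM, and the 5 natural killer cell genes to at most 0.111 CPM with Ncr1, Klrd1 and Gzma at 0. Neutrophil genes summed to between 0.0354 and 1.08 CPM with Ly6g at 0, and mast cell genes to between 0.672 and 3.38 CPM with Fcer1a at 0. Dendritic cell genes summed to between 10.2 and 21.0 CPM, of which Zbtb46 gave 9.59 to 20.3 CPM and Cd209a was at 0. The 10 erythroid and platelet genes summed to between 4.69 and 55.7 CPM, of which Alas2 ranged from 0.277 to 53.9 CPM and Pf4 from 0.248 to 9.35 CPM, while Hbb-bs and Hbb-bt were at 0 in all libraries.

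Single genes of these lists were called. Cd28, a T cell co-receptor, was lower with Sox17-Erg by -4.06 ± 0.43 at Day 7 (SE, edgeR adjusted p = 0.00046) and by -3.58 ± 0.38 at Week 4 (0.00028), and rose in controls over time by 1.81 ± 0.35 (0.0061). Alas2, the erythroid heme enzyme, was lower with Sox17-Erg by -3.74 ± 0.44 at Day 7 (0.00083) and by -2.84 ± 0.41 at Week 4 (0.0014). It rose over time by 6.74 ± 0.54 in controls (0.00017) and by 3.76 ± 0.53 with Sox17-Erg (0.0017), while Hbb-bs and Hbb-bt stayed at 0. Pf4, a platelet chemokine, changed by -2.73 ± 0.74 in controls (0.025) and by -2.82 ± 0.77 with Sox17-Erg (0.023), each lost in 3 of 12 fits that left out 1 library (-4.34 to -1.92 and -4.44 to -2.03). Cd4 was higher with Sox17-Erg at Week 4 by 3.22 ± 0.93 (0.035), with no library above 0.614 CPM at any time. Zbtb46 was lower at Week 4 by -0.85 ± 0.15 (0.0034) and fell over time with Sox17-Erg by -0.71 ± 0.15 (0.0077). Cd22 fell in controls by -1.70 ± 0.48 (0.029). Hdc was at -1.54 ± 0.45 at Day 7 (0.045), a call lost in 11 of 12 fits that left out 1 library. Such fits lost the call of Cd4 in 6 of 12, that of Cd22 in 4, that of Zbtb46 over time in 2 and that of Cd28 over time in 1, and with only the compared groups Cd4 (0.068) and Hdc (0.12) were not called. Without both Week 4 libraries numbered 1 the calls of Cd4 (0.13) and Zbtb46 (0.071) at Week 4, Hdc at Day 7 (0.068), Cd28 (0.062) and Cd22 (0.17) over time in controls and Zbtb46 over time with Sox17-Erg (0.074) were lost, each with its edgeR adjusted p.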

How the data were processed

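Bulk RNAseq of 12 libraries in 6 groups of 2 was used as deposited. The authors extracted RNA with TRIzol, prepared stranded mRNA libraries, demultiplexed reads with bcl2fastq 2.20.0, trimmed high GC content with BBDuk and quantified transcripts with Salmon, whose version is not given in the sources used here. The submitters' processing notes name mm10. They deposited estimated counts per gene for 35727 Ensembl genes, already rounded to whole numbers and not scaled for library size. Symbols, exon lengths and shared 31-base words came from GENCODE M21 on GRCm38, and promoters from RefSeq on GRCm38.p6. All blood cell and partner lists, the 39 members and the naming rule were chosen with earlier results of these data known.

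Labels gave the groups. The quasi-likelihood test of edgeR 4.0.16 (R 4.3.3, limma 3.58.1) was run after TMM scaling. Its filterByExpr step, set to at least 10 counts and a total of 15, left 15506 genes, 37 of them members. Each group had its own mean, leaving 6 residual degrees of freedom. Calls required an adjusted p (Benjamini-Hochberg, all tested genes) under 0.05. The SE printed with a log2 fold change is its absolute value divided by the square root of edgeR's F statistic, and so restates the test. Fold changes with adjusted p were printed for members called in the unblocked fit, for some called only with the block and for 6 defining markers. In other lists they were printed for at most 4 called genes per list and comparison. The fit was tested on simulated data with known changes. Replicate libraries were not duplicates, since their chi-square divided by its degrees of freedom lay between 27.4 and 70.4. Exact binomial intervals cover counting error only.

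Replicate numbers come from the labels. Deviations of same-numbered libraries, across genes that are not independent replicates, correlated by 0.186 at Day 3, 0.301 at Day 7 and 0.171 at Week 4, so the numbers were taken to pair cultures within a time point, and the fit with that replicate block, which has 3 residual degrees of freedom, is given where it changes a call. Other alternatives were DESeq2 1.42.0, its size factors, no filter, a filter of 1 CPM in 2 libraries, a block over all libraries, only the compared groups and leaving out each library. Leaving out both Week 4 libraries numbered 1 was added after seeing the data. A gene of the further macrophage list and a gene of the B cell list are not reported here and were left out of their lists. Other sequencing experiments of the study were not analysed here.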

Additional observations from a re-analysis of the deposited data

Results flagged for a closer look

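Among the genes of the leukocyte lists, 1 differed in its Sox17-Erg effect between Day 3 and Week 4 by edgeR's test of the difference itself without a replicate block. Of the marker lists checked, 1 fibroblast and 1 endothelial gene were called as well, and with the replicate block within time points so were Cd163, Stab1, Zbtb46 and Alas2. The Sox17-Erg effect on Cd28 changed by -2.50 ± 0.53 on the log2 scale between Day 3 and Week 4 (SE, edgeR adjusted p = 0.038). Cd28 measured 1.75 and 1.48 CPM in controls and 0.658 and 0.862 CPM with Sox17-Erg at Day 3. At Week 4 it measured 6.24 and 5.12 CPM in controls and 0.460 and 0.481 CPM with Sox17-Erg. The adjusted p was 0.048 with the replicate block within time points and 0.014 in DESeq2. The call was lost in 8 of the 12 fits that left out 1 library, with an adjusted p from 0.079 to 0.15, and without both Week 4 libraries numbered 1 the difference was -2.32 (adjusted p = 0.30).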

How the results depend on the processing

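Counts of called members moved with the processing more than directions did, and except where stated the cause was not tested. The share of all genes called lower at Day 7 was 7.93% as reported, 10.4% in DESeq2 and 6.73% with no filter. It was 13.3% with the block within time points and 3.29% with only the compared groups. At Week 4, 7.98% of all genes were higher with no filter, and 15.5% were called in each direction with that block. Over time in controls 12.6% were lower as reported, 8.52% with no filter and 13.1% with a block over all libraries. Members lower at Day 7, 1 as reported, were 2 in DESeq2, 17 with no filter on low counts, 28 with the replicate block within time points, 18 with only the compared groups, 20 without both Week 4 libraries numbered 1 and 0 to 3 when 1 library was left out. At Week 4, members higher (0) were 1 with no filter, 2 with the block within time points and 0 to 7 with 1 library left out, and members lower (1) were 1 with no filter, where Trem2 replaced Aif1, 2 with that block, 0 with only the compared groups, 0 without both libraries numbered 1 and 0 to 2 with 1 library left out. Over time in controls, members higher (0) were 1 in DESeq2, with no filter and with only the compared groups, and 0 to 1 with 1 library left out. Members lower (4) were 17 with no filter, 7 with a replicate block over all libraries and 1 to 23 with 1 library left out. Over time with Sox17-Erg, members higher (1) were 0 with the block over all libraries and 0 to 1 with 1 library left out, and members lower (6) were 3 with the stricter filter, 1 without both libraries numbered 1 and 0 to 6 with 1 library left out. The difference in effect gave 1 member higher (0 as reported) with the block within time points.

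The sign of some log2 fold changes turned. Tyrobp at Week 4 was 0.13 with the block within time points. Without both Week 4 libraries numbered 1, Tyrobp over time was 0.50 in controls, and over time with Sox17-Erg Csf1r was 0.34, Adgre1 0.62, Tyrobp 0.19 and C1qa 0.11. With 1 library left out, Day 3 values ranged from -0.26 to 0.65 for Csf1r, -0.57 to 0.59 for Tyrobp and -0.15 to 1.08 for C1qa. Week 4 values ranged from -1.31 to 2.07 for Csf1r, -0.13 to 2.40 for Ptprc, -2.30 to 2.45 for Spi1, -1.39 to 3.66 for Adgre1, -2.86 to 4.21 for Tyrobp and -1.47 to 3.37 for C1qa. Over time Tyrobp ranged from -4.97 to 0.51 in controls. With Sox17-Erg the ranges over time were -2.22 to 0.38 for Csf1r, -2.22 to 0.66 for Adgre1, -3.26 to 0.24 for Tyrobp and -2.80 to 0.15 for C1qa.

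Where leaving out a library left a group with 1, that library was assumed to vary like the other groups. With 2 libraries per group the errors are imprecise, and the low counts of the MHC class II genes and Cd52 limit what could be detected for them. Deviations of same-numbered libraries correlated between Day 3 and Day 7 by 0.139 to 0.219, but pairs of either time with Week 4 gave -0.14 to -0.006. Counts with the block over all libraries are therefore named only for changes over time.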

Other observations

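2 genes of the further macrophage list, outside the 39, shared the Day 7 maximum of the controls. Other genes of that list differed, such as Mertk, which lacked the replicate gap in Week 4 controls, and Cx3cr1, which was higher with Sox17-Erg. Siglec1, a sialic acid receptor, and Lyve1, a hyaluronan receptor, were chosen here after their values were seen. In controls Siglec1 measured 18.3 and 8.74 CPM on Day 3, then 81.5 and 102 CPM on Day 7 and 2.26 and 27.1 CPM in Week 4. With Sox17-Erg it measured 7.34 and 8.10 CPM on Day 3, then 26.7 and 40.4 CPM on Day 7 and 6.05 and 29.5 CPM in Week 4. In controls Lyve1 measured 2.11 and 2.91 CPM on Day 3, then 20.7 and 32.5 CPM on Day 7 and 2.56 and 7.97 CPM in Week 4. Its Sox17-Erg libraries held 2.48 and 5.17, 6.95 and 10.2, and 4.14 and 12.1 CPM at the same times. In both cultures the Day 7 libraries of both genes lay above those of Day 3, which was not tested, and both genes had the replicate gap at Week 4.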
